A study of Mus musculus with 6 samples.

Results

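Semaphorins, their plexin and neuropilin receptors, and the collapsin response mediator proteins (CRMPs) that act below them were compared between early- and late-labelled cells of the Atoh1 lineage in the mouse hindbrain. The members were defined by gene symbol, and earlier results of these data were known when they were chosen. The rule took every probe set with 1 gene symbol that began with Sema and a digit or with Plxn, or that was Nrp1, Nrp2, Crmp1 or Dpysl2 to Dpysl5. This gave 90 of 45101 probe sets, which stood for 37 of 18193 genes: 20 semaphorins, 11 plexins and neuropilins, 5 CRMPs and Plxna4os1, a transcript antisense to Plxna4. All embryos were Swiss Webster and carried Atoh1-CreER, a tamoxifen-inducible Cre recombinase driven by Atoh1, together with the RCE reporter, which makes EGFP once Cre has acted. The E10-labelled group came from dams given tamoxifen (4 mg per 35 g, by gavage) at E10.5, and the E13-labelled group from dams given it at E13.5. In both groups rhombomere 1 and the isthmus were dissected at E14.5, and EGFP-positive cells were sorted by flow cytometry. Each group held 3 samples, each on its own Affymetrix Mouse Genome 430 2.0 array. The number of arrays limits the precision. Whether the samples stem from different litters is not stated in the labels, and p-values therefore reflect just the variation among these 6 samples, part of which may be technical. The day of labelling and the time from labelling to collection changed together and cannot be told apart.

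Semaphorins are secreted or membrane-bound guidance cues that turn, repel or attract growing axons and migrating neurons. Most secreted semaphorins bind a neuropilin, which has little signalling activity of its own and works with a class A plexin as the signalling partner; membrane-bound semaphorins mostly bind plexins directly. The cytoplasmic part of a plexin acts on small GTPases, and CRMPs, which bind tubulin and other cytoskeletal proteins, carry part of the signal to the growth cone. In the developing cerebellum, plexin B2 and semaphorin 6A with plexin A2 are known in the mouse for their roles in granule cell precursors and their migration.

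The arrays had median signals of 97.5 to 111 units, where a unit is 1 step of the linear MAS5 signal. Over all probe sets, Spearman's correlation ran at 0.874 to 0.893 among E10-labelled arrays, 0.938 to 0.945 among E13-labelled arrays and 0.845 to 0.885 between the groups, so the E10-labelled arrays resembled each other less. The Actb control signal at the 3′ end, divided by that at the 5′ end, a measure of RNA integrity, was 17.4 to 26.2 in E10-labelled and 12.9 to 16.1 in E13-labelled arrays, while that of Gapdh overlapped, at 10.6 to 13.2 in E10-labelled and 9.47 to 12.1 in E13-labelled arrays. E10-labelled replicate 3 had an Xist signal of 166 units, against 8141 to 19797 units in the other 5 arrays. E13-labelled replicate 3 had an Eif2s3y signal of 14.1 units, against 826 to 1772 units in the others. These sex-linked signals set replicate 3 of both groups apart, and the main counts are given below with and without them. Of the markers of the labelled cells, Atoh1 averaged 690.1 ± 273 units in E10-labelled and 8642 ± 1588 units in E13-labelled cells (SD, n = 3 each). Of 9 markers of the Atoh1 lineage, Lhx2, Lhx9, Meis2 and Slc17a6 were higher in E10-labelled cells (4 genes), Atoh1, Pax6 and Barhl1 were higher in E13-labelled cells (3 genes), Zic1 did not pass, and Barhl2 lay below the median in all 6 arrays and was not tested. Lhx9 averaged 7203 ± 1921 units in E10-labelled and 659 ± 140.1 units in E13-labelled cells, and Pax6 averaged 1254 ± 458 units in E10-labelled and 8748 ± 566 units in E13-labelled cells. Their summed signal, over markers that went in both directions, was 56229 to 57765 units in E10-labelled and 47596 to 52820 units in E13-labelled arrays.

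Most genes of the family that could be tested differed between the groups, and more were higher in E10-labelled than in E13-labelled cells. Probe sets entered the test when at least 3 of the 6 arrays put them above the array median, and each gene was represented by its brightest probe set. By that rule 31 of the 37 genes were tested. Of these, 15 were higher in E10-labelled cells, 5 were higher in E13-labelled cells and 11 did not pass an adjusted p of 0.05 (limma on log2 signals, Benjamini-Hochberg over all 23491 tested probe sets). Among all 11071 tested genes 30.1% passed, 16.2% higher in E10-labelled and 13.9% higher in E13-labelled cells, against 64.5% of the tested family genes. The family was chosen with earlier results of these data known, so this contrast is descriptive only. Without replicate 3 of both groups, 7 of the 20 family calls were kept, and without the filter on dim probe sets 10 were kept. Calls fell among all probe sets too. Of the 23491 tested, 3155 were higher in E10-labelled and 2939 in E13-labelled cells, against 830 and 651 without replicate 3 of both groups. Without the filter 1559 and 1160 of 45037 passed. The median log2 difference was 0.78 over the tested family genes and -0.03 over all tested genes, where a positive value means a higher signal in E10-labelled cells. In 26 of the 31 genes the arrays of both groups did not overlap (E10-labelled above in 19, E13-labelled above in 7), against 52.4% of all tested genes (26% and 26.4%). A gene above the median in 1 group only is tested because of that group, so the share of tested genes that passed says nothing of the 6 untested ones. In these sorted populations fewer cells that express a gene and less of its RNA per cell cannot be told apart.

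**Figure D1:**
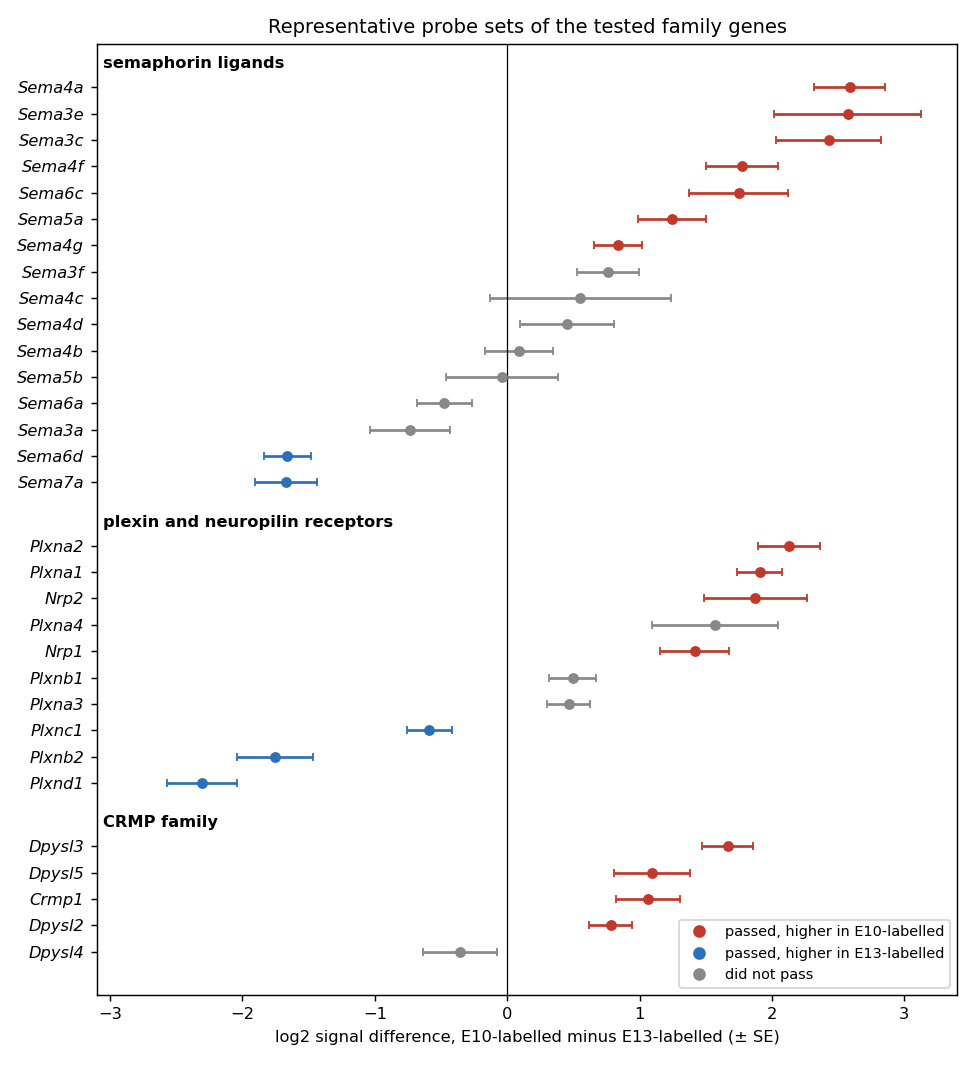
The log2 signal difference, E10-labelled minus E13-labelled, of the brightest probe set of each of the 31 tested genes, with limma's standard error, by role. Most ligands, all CRMPs but Dpysl4 and 7 of the 10 receptors lie to the right of 0, while Plxnc1, Plxnb2 and Plxnd1 lie on the left.

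Of 16 tested semaphorins, 7 were higher in E10-labelled cells (Sema3c, Sema3e, Sema4a, Sema4f, Sema4g, Sema5a and Sema6c), 2 were higher in E13-labelled cells (Sema6d and Sema7a) and 7 did not pass. The share of the 16 that passed was 56.2%, against 30.1% of all tested genes, and their median log2 difference was 0.66. Without replicate 3 of both groups, 2 semaphorins were higher in E10-labelled and 1 in E13-labelled cells, a fit in which calls among all probe sets also fell. Sema4a, a transmembrane semaphorin also studied in immune cells and the retina, read 1191, 1596 and 1761 units in the E10-labelled arrays, against 334, 224 and 207 units in the E13-labelled arrays. The groups did not overlap, and every E10-labelled array was higher (log2 difference 2.58 ± 0.27 (SE), limma adjusted p = 0.00229). Sema4f, a transmembrane semaphorin found at synapses, read 2909.9, 1844 and 3470.3 units in the E10-labelled arrays, against 821, 754 and 753 units in the E13-labelled arrays. Again every E10-labelled array lay above every E13-labelled one, by 3.42-fold on average (log2 difference 1.77 ± 0.27, limma adjusted p = 0.00653). Both calls rest on probe sets whose names end in _x_at, a type in which some probes may also match other genes. The other tested probe set of Sema4a passed in the same direction (log2 difference 2.41 ± 0.37, limma adjusted p = 0.00692), and that of Sema4f did not pass (0.88 ± 0.29, limma adjusted p = 0.0668). The Sema4f call was lost without replicate 3 of both groups (limma adjusted p = 0.0698).

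Both secreted semaphorins that passed, Sema3c and Sema3e, were higher in E10-labelled cells. Sema3c, a ligand of neuropilins, read 948, 466 and 337 units in the E10-labelled arrays, against 112, 84.8 and 101 units in the E13-labelled arrays. Its E10-labelled arrays spread widely yet stayed above all E13-labelled arrays, with a 5.37-fold higher signal (log2 difference 2.43 ± 0.40, limma adjusted p = 0.00813). Sema3e, which binds plexin D1 without a neuropilin, read 764, 759 and 337 units in the E10-labelled arrays, against 206, 73.6 and 61.6 units in the E13-labelled arrays. The E10-labelled arrays were higher throughout, 5.94-fold on average, with replicate 3 below replicates 1 and 2 (log2 difference 2.57 ± 0.56, limma adjusted p = 0.0206). With single arrays left out in turn, here and below, the Sema3e call was lost without E10-labelled replicate 1 or 2 (limma adjusted p = 0.0544 and 0.0502) or without E13-labelled replicate 2 or 3 (limma adjusted p = 0.0743 and 0.074). With every signal under its array's median set to that median, the differences of Sema3c and Sema3e were 4.91-fold and 4.40-fold. Each call rests on a single probe set. The other probe sets of both genes lay below the median in every array and were not tested. Their groups overlapped, with log2 differences of 0.67 for Sema3c and of 0.77, 0.02 and 0.42 for Sema3e.

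Sema6c, a transmembrane semaphorin of the class that binds class A plexins, read 243, 433 and 186 units in the E10-labelled arrays, against 93.6, 58.2 and 94.6 units in the E13-labelled arrays. All E13-labelled arrays lay below their array medians, so the gene was tested only because of its E10-labelled arrays. The 3.36-fold difference thus rests on a background level and was 2.62-fold with the floor at the median (log2 difference 1.75 ± 0.38 without the floor, limma adjusted p = 0.0201). The other probe sets of Sema6c lay below the median in every array and were not tested. Sema5a, a transmembrane semaphorin with thrombospondin repeats, read 644, 599.8 and 823 units in the E10-labelled arrays, against 241, 386 and 255 units in the E13-labelled arrays. The groups were apart by 2.37-fold (log2 difference 1.25 ± 0.26, limma adjusted p = 0.0175), and the gene's other tested probe set passed at 1.14 ± 0.24. Sema4g, a ligand of plexin B2, read 1167, 1137 and 1386 units in the E10-labelled arrays, against 625, 717 and 722 units in the E13-labelled arrays, with no overlap and a 1.78-fold higher signal in E10-labelled cells (log2 difference 0.84 ± 0.18, limma adjusted p = 0.0202). Each of these 3 calls was lost when certain single arrays were left out. That of Sema6c was lost without E13-labelled replicate 1, 2 or 3 (limma adjusted p = 0.0573, 0.0694 and 0.0575). The Sema5a call was lost without E13-labelled replicate 1 or 3 (limma adjusted p = 0.0686 and 0.0748). Sema4g was not called without E13-labelled replicate 1, 2 or 3 (limma adjusted p = 0.0812, 0.0691 and 0.0735).

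Both semaphorins higher in E13-labelled cells were membrane-bound. Sema6d, a transmembrane ligand of plexin A1, read 2602, 2579.9 and 2220.2 units in the E10-labelled arrays, against 7524, 8591 and 7296 units in the E13-labelled arrays. Its 3 E10-labelled arrays were close to each other and all lay below the E13-labelled arrays (log2 difference -1.66 ± 0.18, limma adjusted p = 0.0024). A further Sema6d probe set passed too, with the same sign (-1.91 ± 0.43, limma adjusted p = 0.0233), and the remaining tested one did not (-2.30 ± 1.19, limma adjusted p = 0.208). Sema7a, a membrane-anchored semaphorin that binds plexin C1 and integrins, read 829, 493 and 597 units in the E10-labelled arrays, against 1939.8, 1989.6 and 2033 units in the E13-labelled arrays. The E13-labelled arrays were nearly equal and all above the E10-labelled arrays (log2 difference -1.67 ± 0.23, limma adjusted p = 0.00521). The Sema6d call held in every alternative tried, and that of Sema7a was lost only without replicate 3 of both groups (limma adjusted p = 0.0719).

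The 7 tested semaphorins that did not pass were Sema3a, Sema3f, Sema4b, Sema4c, Sema4d, Sema5b and Sema6a. The tested Sema3f probe set is of the _x_at type described above. Sema3f, a ligand of Nrp2, read 1069, 946 and 1185 units in the E10-labelled arrays, against 824, 548 and 547 units in the E13-labelled arrays; the groups did not overlap, but the log2 difference of 0.76 ± 0.23 missed the threshold (limma adjusted p = 0.0586), and it passed with the floor at the array median (limma adjusted p = 0.0392), with the filter at the 70th percentile (0.029), with an intensity trend (0.0336) and when p-values were adjusted over genes in place of probe sets (0.0419; its 1 tested probe set was the same). Sema3a, the classic axon repellent that acts through Nrp1, read 422, 648 and 908 units in the E10-labelled arrays, against 1089, 1020.1 and 1029 units in the E13-labelled arrays. It lay lower in every E10-labelled array (log2 difference -0.73 ± 0.30, limma adjusted p = 0.124) and was called higher in E13-labelled cells without E10-labelled replicate 3 (limma adjusted p = 0.042) or as the mean of its 2 tested probe sets (0.00731). For Sema6a, a ligand of class A plexins, the probe sets opposed each other. The brightest read 1169.7, 1441 and 1433 units in the E10-labelled arrays, against 1612, 1799 and 2234 units in the E13-labelled arrays, without overlap (log2 difference -0.47 ± 0.21, limma adjusted p = 0.145). The other read 152, 190.4 and 129.5 units in the E10-labelled arrays, against 107, 62.1 and 71.6 units in the E13-labelled arrays, and passed in the opposite direction (0.99 ± 0.28, limma adjusted p = 0.0436), so no direction can be given for the gene. Sema4c, a ligand of plexin B2, ranged over 400.4 to 2408 units in E10-labelled and 462 to 959 units in E13-labelled arrays; Sema4b, Sema4d and Sema5b likewise overlapped between the groups, with log2 differences of 0.09, 0.45 and -0.04. Sema3b, Sema3d, Sema3g and Sema6b were too dim to be tested. The brightest probe set of Sema3b lay at 1.56 to 25.3 units in E10-labelled and 8.61 to 55.1 units in E13-labelled arrays. That of Sema3d lay at 53.4 to 112 units in E10-labelled and 81.2 to 88.9 units in E13-labelled arrays. For Sema3g it lay at 12.3 to 67.7 units in E10-labelled and 13.4 to 24.7 units in E13-labelled arrays, and for Sema6b at 45.4 to 175 units in E10-labelled and 20.4 to 80.9 units in E13-labelled arrays.

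**Figure D2:**
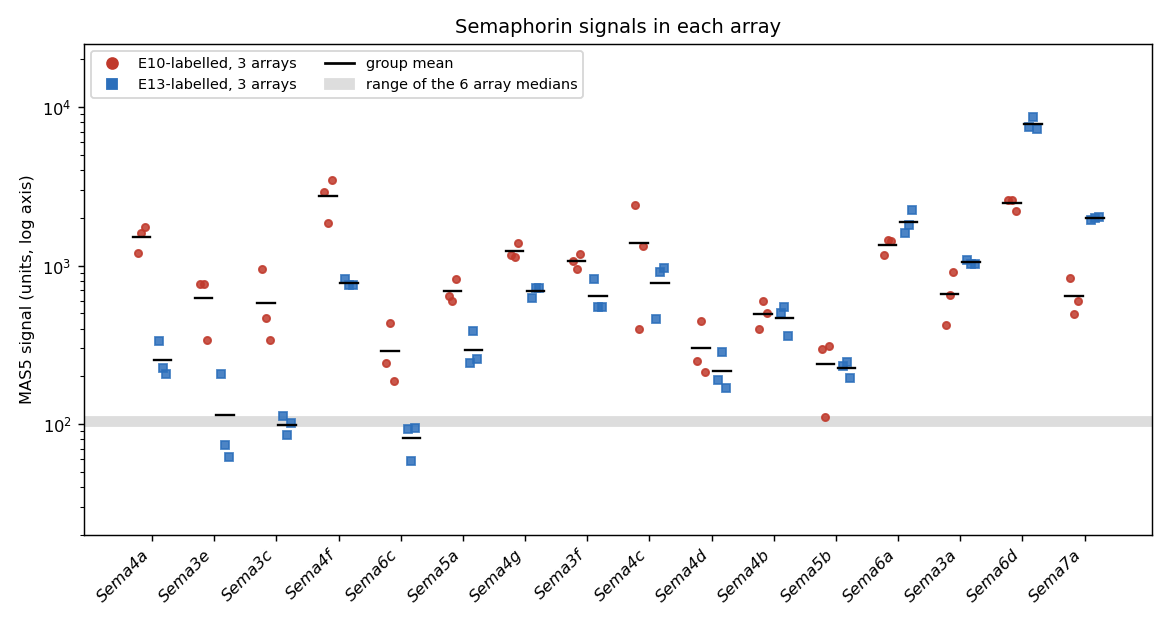
MAS5 signal on a log axis of the brightest probe set of each of the 16 tested semaphorins in each array, E10-labelled (circles) left of E13-labelled (squares), with the group means as bars and the range of array medians shaded. Sema6d and Sema7a at the right are higher in all 3 E13-labelled arrays, and the E13-labelled arrays of Sema3c, Sema3e and Sema6c reach into or below the shaded range.

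The receptors moved in both directions. Of 10 tested plexins and neuropilins, 4 were higher in E10-labelled cells (Plxna1, Plxna2, Nrp1 and Nrp2), 3 were higher in E13-labelled cells (Plxnb2, Plxnc1 and Plxnd1) and 3 did not pass (Plxna3, Plxna4 and Plxnb1). The median log2 difference of the 10 was 0.95. In none of the 10 did the arrays of the groups overlap, while 52.4% of all tested genes did not overlap either. The brightest probe sets of all 4 class A plexins were higher in every E10-labelled array, as were 26% of all tested genes. The share of the 10 that passed was 70%, against 30.1% of all tested genes. Without replicate 3 of both groups, 2 receptors were higher in E10-labelled and 1 in E13-labelled cells, again with fewer calls among all probe sets.

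Plxna2, the class A plexin that binds semaphorin 6A in cerebellar granule cells of the mouse, read 1349.8, 1451 and 1037 units in the E10-labelled arrays, against 241, 286 and 352 units in the E13-labelled arrays. All E10-labelled arrays lay well above the others, 4.38-fold on average (log2 difference 2.13 ± 0.23, limma adjusted p = 0.00253). Of its 3 other tested probe sets, 2 also passed in that direction (limma adjusted p = 0.00265 and 0.00844), and the remaining one did not (0.51 ± 0.26, limma adjusted p = 0.198). Plxna1, the signalling partner of neuropilins for secreted semaphorins and a direct receptor of semaphorin 6D, read 991, 1114 and 976 units in the E10-labelled arrays, against 258, 293 and 270.2 units in the E13-labelled arrays. Arrays within each group were close together, and the signal was 3.75-fold higher in E10-labelled cells (log2 difference 1.91 ± 0.17, limma adjusted p = 0.00164). The calls of Plxna1 and Plxna2 held in all 16 alternatives tried.

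Nrp1, the neuropilin that binds semaphorin 3A and VEGF, read 2623, 2123 and 1668 units in the E10-labelled arrays, against 886, 896 and 617 units in the E13-labelled arrays. No array overlapped between the groups, and the signal was 2.67-fold higher in E10-labelled cells (log2 difference 1.41 ± 0.26, limma adjusted p = 0.0118). All 4 of its tested probe sets passed, at log2 differences of 1.04 to 1.44. Nrp2, the neuropilin that binds semaphorin 3F, read 386, 424 and 539 units in the E10-labelled arrays, against 80.0, 214 and 105 units in the E13-labelled arrays. Its E10-labelled arrays were all higher, 3.66-fold on average, while E13-labelled replicate 2 stood above the other E13-labelled arrays (log2 difference 1.87 ± 0.39, limma adjusted p = 0.0181). All 3 tested probe sets of Nrp2 passed, at 1.87 to 2.23. The call of Nrp2 was lost without E13-labelled replicate 1 or 3 (limma adjusted p = 0.0567 and 0.0726). Without replicate 3 of both groups neither neuropilin passed (limma adjusted p = 0.0556 for Nrp1 and 0.147 for Nrp2), and likewise without the filter on dim probe sets (0.0576 and 0.0674).

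Plxnd1, the plexin that binds semaphorin 3E and is best known from blood vessels, read 129, 169 and 210.4 units in the E10-labelled arrays, against 869, 977 and 651 units in the E13-labelled arrays. The E13-labelled arrays were all higher, and the difference was the largest in size among the 10 receptors (log2 difference -2.30 ± 0.26, limma adjusted p = 0.00284). The call held in all 16 alternatives. Of 8 endothelial markers only 2, Cldn5 and Esam, were tested, and neither passed. Of the 8, 4 were below the median in all 6 arrays. The summed signal of the 8 was 365 to 2399 units in E10-labelled and 329 to 1471 units in E13-labelled arrays. Cldn5 gave the largest share of that sum in every array, at 212 to 1456 units in E10-labelled and 93.1 to 822 units in E13-labelled arrays, and the part of endothelial RNA in the Plxnd1 difference was not tested. Plxnb2, a receptor for class 4 semaphorins in granule cell precursors, read 1885, 1227 and 2418 units in the E10-labelled arrays, against 6272, 5163 and 6624 units in the E13-labelled arrays. Every E13-labelled array was higher (log2 difference -1.75 ± 0.29, limma adjusted p = 0.00847), and the call was lost only without replicate 3 of both groups (limma adjusted p = 0.0526). Plxnc1, the receptor of semaphorin 7A, read 4487, 4083 and 4376 units in the E10-labelled arrays, against 6511, 5987 and 6976 units in the E13-labelled arrays. The E13-labelled arrays were all higher, but the difference was the smallest of the 20 that passed (log2 difference -0.59 ± 0.17, limma adjusted p = 0.0469). It was lost without E10-labelled replicate 1, 2 or 3 (limma adjusted p = 0.0663, 0.0768 and 0.0742) or without E13-labelled replicate 1, 2 or 3 (limma adjusted p = 0.137, 0.11 and 0.172), and with each array centred on its median (limma adjusted p = 0.0596). The 3 other tested probe sets of Plxnc1 had log2 differences of -1.99 to -0.86, none of which passed.

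Plxna4, a class A plexin of sensory and sympathetic axons, read 189, 450.2 and 356 units in the E10-labelled arrays, against 60.2, 119.7 and 159.9 units in the E13-labelled arrays. Its E10-labelled arrays were all higher, but the log2 difference of 1.57 ± 0.47 missed the threshold (limma adjusted p = 0.0557). It passed with the floor at the array median (limma adjusted p = 0.0235), with an intensity trend (0.0377), with adjustment over genes in place of probe sets (0.0415, on the same 1 tested probe set) and without E10-labelled replicate 1 (0.0375). Plxna3, an X-linked class A plexin that works with Nrp2, read 1253, 1313 and 1393 units in the E10-labelled arrays, against 960.2, 984 and 926 units in the E13-labelled arrays. The groups were apart by 1.38-fold (log2 difference 0.46 ± 0.16, limma adjusted p = 0.0825), while its other probe set overlapped and had the opposite sign (-0.14 ± 0.23, limma adjusted p = 0.685). Plxnb1, the receptor of semaphorin 4D, read 810.0, 817 and 869 units in the E10-labelled arrays, against 533, 667 and 580.5 units in the E13-labelled arrays, with a log2 difference of 0.49 ± 0.17 (limma adjusted p = 0.0872). Its other probe set also had the opposite sign (-0.25 ± 0.26). Plxna3 and Plxnb1 passed only with the filter at the 70th percentile (limma adjusted p = 0.0414 and 0.0451). Plxnb3, at 3.78 to 96.0 units in E10-labelled and 20.7 to 70.9 units in E13-labelled arrays, lay below the array medians throughout and was not tested. The same held for Plxna4os1, at 45.3 to 62.4 units in E10-labelled and 12.9 to 34.1 units in E13-labelled arrays.

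**Figure D3:**
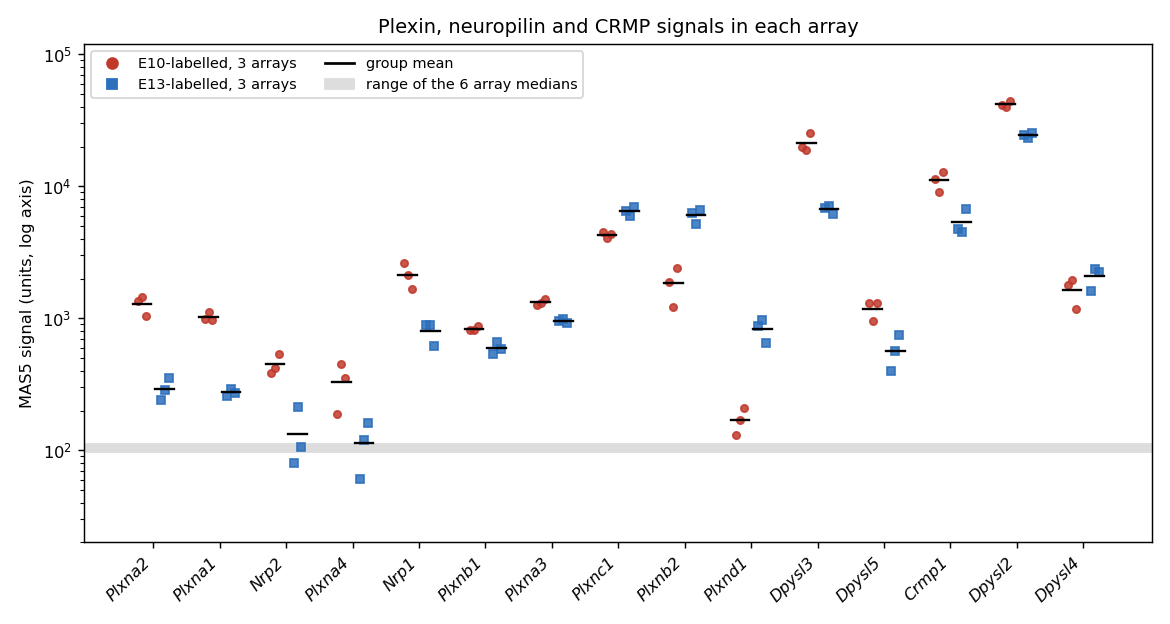
MAS5 signal on a log axis of the brightest probe set of each tested plexin, neuropilin and CRMP in each array, E10-labelled (circles) left of E13-labelled (squares), with group means as bars and the range of array medians shaded. Plxna2, Plxna1, Nrp2 and Nrp1 are higher in all E10-labelled arrays, Plxnc1, Plxnb2 and Plxnd1 in all E13-labelled arrays, and Dpysl4 is the only gene of the plot whose groups overlap.

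Of the 5 CRMPs, 4 were higher in E10-labelled cells, with none higher in E13-labelled cells by the brightest probe set. The share of the 5 that passed was 80%, against 30.1% of all tested genes, and their median log2 difference was 1.06. Dpysl3 had the largest difference, at 20031, 19001 and 25269.9 units in the E10-labelled arrays, against 6874, 7109.6 and 6164 units in the E13-labelled arrays. All E10-labelled arrays were higher, 3.17-fold on average (log2 difference 1.67 ± 0.19, limma adjusted p = 0.00288). Another probe set passed (1.49 ± 0.17, limma adjusted p = 0.00279), and the remaining one did not (0.76 ± 0.26, limma adjusted p = 0.0759). Crmp1, a mediator of semaphorin 3A signalling, read 11425, 9049.8 and 12792 units in the E10-labelled arrays, against 4779, 4488 and 6749 units in the E13-labelled arrays, 2.09-fold higher in E10-labelled cells without overlap (log2 difference 1.06 ± 0.24, limma adjusted p = 0.0246). Dpysl2, the CRMP that promotes microtubule assembly in axons, read 41527, 39659 and 44229 units in the E10-labelled arrays, against 24669.5, 23058 and 25275 units in the E13-labelled arrays. The groups did not overlap, and the difference was 1.72-fold (log2 difference 0.78 ± 0.16, limma adjusted p = 0.0184). Dpysl5, a CRMP of developing neurons, read 1312, 949 and 1297 units in the E10-labelled arrays, against 400.0, 561 and 746 units in the E13-labelled arrays, again with all E10-labelled arrays higher (log2 difference 1.09 ± 0.29, limma adjusted p = 0.0375). The Dpysl3 call held in all 16 alternatives. That of Crmp1 was lost without E10-labelled replicate 1 or 3 (limma adjusted p = 0.055 and 0.0568) or without E13-labelled replicate 1 or 2 (limma adjusted p = 0.0907 and 0.0909). The Dpysl2 call was lost without E13-labelled replicate 1, 2 or 3 (limma adjusted p = 0.0684, 0.0802 and 0.0732) and after quantile normalization (0.0521). Dpysl5 was not called without E10-labelled replicate 1 or 3 (limma adjusted p = 0.0845 and 0.0841) or without E13-labelled replicate 1 or 2 (limma adjusted p = 0.106 and 0.107). Without replicate 3 of both groups only Dpysl3 passed.

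Dpysl4 stood apart from the other CRMPs. Its brightest probe set read 1790.0, 1955 and 1175 units in the E10-labelled arrays, against 1610.1, 2381 and 2252 units in the E13-labelled arrays. The arrays overlapped, and the log2 difference of -0.36 ± 0.28 did not pass (limma adjusted p = 0.384). Both other probe sets lay higher in all E13-labelled arrays. The first read 196, 173 and 142 units in the E10-labelled arrays, against 283, 303 and 307 units in the E13-labelled arrays, and passed with a log2 difference of -0.82 ± 0.19 (limma adjusted p = 0.0264), and the second did not (-0.68 ± 0.26, limma adjusted p = 0.109). As the mean over its 3 tested probe sets Dpysl4 passed as higher in E13-labelled cells (limma adjusted p = 0.0491).

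Of 14 genes of the family with at least 2 tested probe sets, 11 had all of them on the same side of 0. The exceptions were Plxna3, Plxnb1 and Sema6a, and none had calls of opposite direction. At the level of probe sets, 55 of 90 were tested, 26 were higher in E10-labelled and 7 in E13-labelled cells. These 33 calls were 60% of the tested ones, against 25.9% of all tested probe sets (13.4% higher in E10-labelled and 12.5% in E13-labelled cells). The groups did not overlap in 46 of the 55, E10-labelled above in 32 and E13-labelled above in 14, against 46.9% of all tested probe sets (22.1% and 24.8%). The probe sets of 1 gene measure the same RNA and are not independent.

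**Figure D4:**
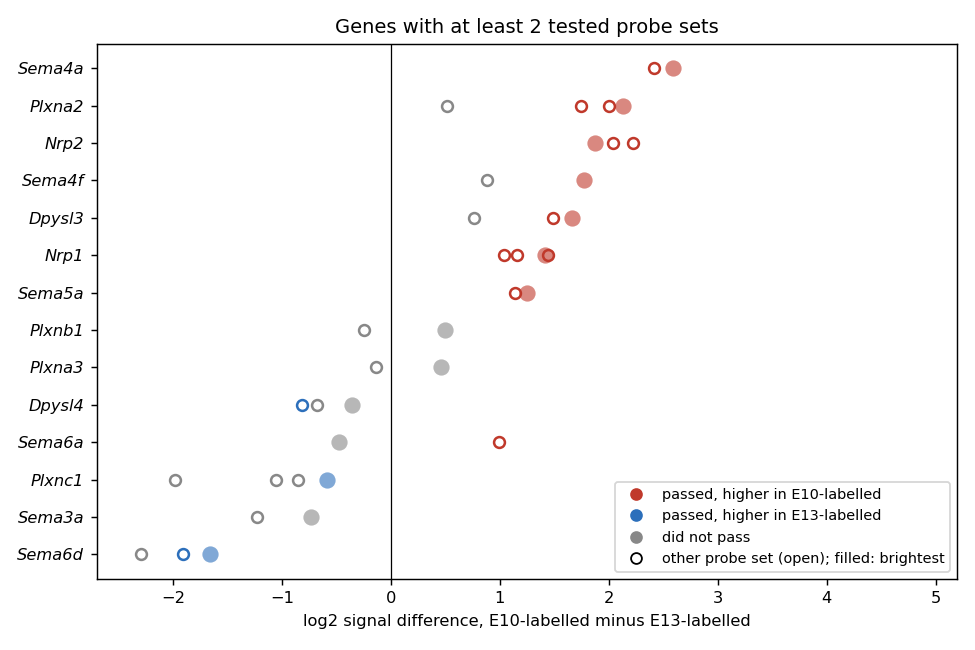
Log2 signal difference, E10-labelled minus E13-labelled, of every tested probe set of the 14 genes with at least 2, with the brightest probe set filled and the others open, coloured by the test. The 4 probe sets of Nrp1 and 3 of Nrp2 lie on 1 side, while those of Plxnb1, Plxna3 and Sema6a lie on both sides of 0.

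Set against each other, the 16 semaphorins had a median log2 difference of 0.66 and the 10 plexins and neuropilins one of 0.95, a difference that was not tested. Ligands and receptors alike held genes that passed in each direction. Ligands and receptors were also set side by side as 12 pairs whose binding is known in the mouse or other mammals. In 6 pairs both genes passed, in 3 of them in the same direction and in 3 in opposite directions. Some genes stand in several pairs, and 64.5% of all tested family genes passed. Without replicate 3 of both groups, Nrp1, Nrp2, Sema3e, Sema4g, Plxnb2, Sema7a and Plxnc1 did not pass. Only Sema6d and Plxna1 then remained as a pair in which both genes passed. Sema3c and both of its neuropilin receptors, Nrp1 and Nrp2, were higher in E10-labelled cells, and Sema7a and its receptor Plxnc1 were higher in E13-labelled cells, Plxnc1 by the small difference given above. Sema3e was higher in E10-labelled cells (2.57) and its receptor Plxnd1 in E13-labelled cells (-2.30). The same crossing was seen for Sema4g (0.84) and its receptor Plxnb2 (-1.75). Sema6d was higher in E13-labelled cells (-1.66) and its receptor Plxna1 in E10-labelled cells (1.91). Both groups of sorted cells came from the same region, and the other cells of the tissue were not measured, so a ligand that reaches these receptors from elsewhere is outside these data.

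**Figure D5:**
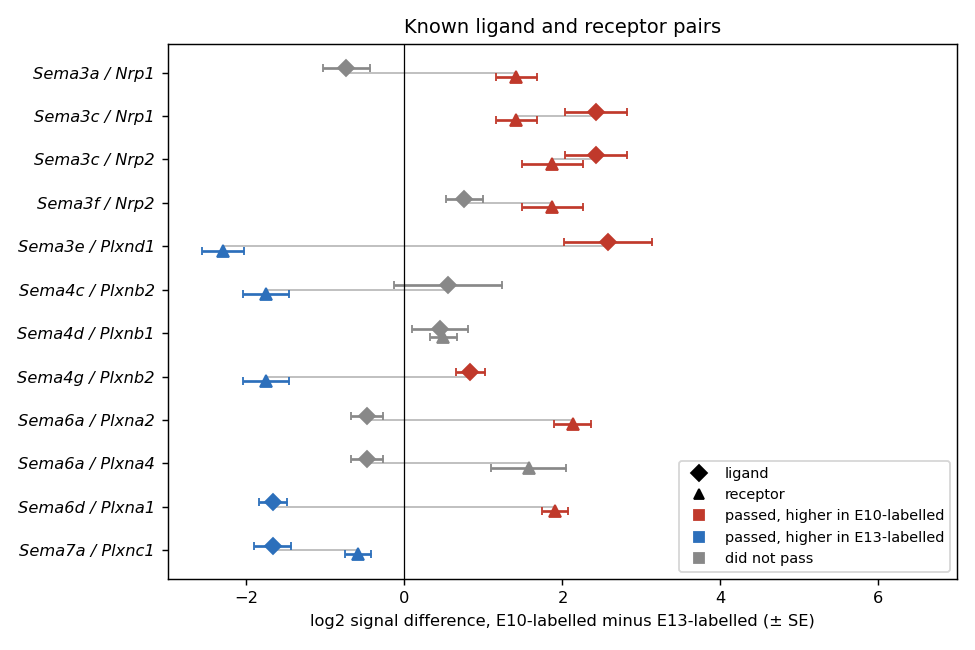
Log2 signal difference, E10-labelled minus E13-labelled (± SE), of the ligand (diamond) and the receptor (triangle) of 12 known pairs, coloured by the test. Sema3e with Plxnd1, Sema4g with Plxnb2 and Sema6d with Plxna1 lie on opposite sides of 0, and Sema3c with either neuropilin and Sema7a with Plxnc1 lie on the same side.

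Promoters are printed for a crossed pair, Sema3e and Plxnd1, and for a pair that moved together, Sema7a and Plxnc1. They serve as examples only, since the calls of Sema3e and Plxnc1 were lost with certain single arrays left out. Each window runs from 250 bases before to 50 bases after the start of the gene (RefSeq, GRCm38.p6), 5′ to 3′ on the gene's strand, with capitals for the E-box CANNTG, the core motif bound by basic helix-loop-helix factors such as Atoh1, and for the GC box GGGCGG on either strand (CCGCCC on the other).
Sema3e promoter, chr5:14025026-14025325, plus strand: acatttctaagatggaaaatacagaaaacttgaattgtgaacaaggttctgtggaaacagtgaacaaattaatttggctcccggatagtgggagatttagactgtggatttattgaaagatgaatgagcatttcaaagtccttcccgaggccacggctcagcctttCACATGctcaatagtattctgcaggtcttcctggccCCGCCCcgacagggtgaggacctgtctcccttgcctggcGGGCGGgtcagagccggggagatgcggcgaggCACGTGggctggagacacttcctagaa
Plxnd1 promoter, chr6:115994956-115995255, minus strand: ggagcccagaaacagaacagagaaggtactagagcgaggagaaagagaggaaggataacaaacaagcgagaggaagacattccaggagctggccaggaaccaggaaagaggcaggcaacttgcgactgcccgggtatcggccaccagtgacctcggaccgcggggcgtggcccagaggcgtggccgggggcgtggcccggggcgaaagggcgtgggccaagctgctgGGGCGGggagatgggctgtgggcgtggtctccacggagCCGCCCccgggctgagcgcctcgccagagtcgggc
Sema7a promoter, chr9:57939862-57940161, plus strand: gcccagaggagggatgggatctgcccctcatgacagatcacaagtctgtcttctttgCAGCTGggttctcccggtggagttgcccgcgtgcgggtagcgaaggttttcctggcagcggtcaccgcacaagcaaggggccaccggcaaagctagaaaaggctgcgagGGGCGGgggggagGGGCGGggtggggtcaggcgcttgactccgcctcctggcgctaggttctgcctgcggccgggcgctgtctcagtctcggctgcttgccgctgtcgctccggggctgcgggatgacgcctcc
Plxnc1 promoter, chr10:94944796-94945095, minus strand: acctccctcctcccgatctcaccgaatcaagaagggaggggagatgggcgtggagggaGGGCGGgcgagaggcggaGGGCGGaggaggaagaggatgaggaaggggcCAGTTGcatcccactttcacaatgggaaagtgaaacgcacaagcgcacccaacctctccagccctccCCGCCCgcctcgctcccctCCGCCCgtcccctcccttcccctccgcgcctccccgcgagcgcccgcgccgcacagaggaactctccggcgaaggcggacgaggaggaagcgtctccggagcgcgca
The Sema3e window holds 2 E-boxes, CACATG and CACGTG, the Sema7a window 1 (CAGCTG), the Plxnc1 window 1 (CAGTTG) and the Plxnd1 window none. GC boxes number 2 for Sema3e, 2 for Plxnd1, 2 for Sema7a and 4 for Plxnc1. Of 32851 promoter windows of that length in the table, 72.3% hold CANNTG and 35.7% hold GGGCGG; of the 40 windows of the 28 family genes in the table, 57.5% and 75% do. A match is only a match of letters, and binding was not measured here.

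The wider pathway was read from 3 lists of partners: 11 co-receptors and other binding partners, 14 GTPases and their regulators, and 15 kinases, Mical enzymes and actin regulators. Of these 40 genes 33 were tested, 8 were higher in E10-labelled and 3 in E13-labelled cells, and their share called, 33.3%, lay near the 30.1% of all tested genes. Among co-receptors, Chl1 and L1cam passed toward E10-labelled cells and Cntn2 toward E13-labelled cells, 3 of 10 tested, with a median log2 difference of -0.21. Chl1, an adhesion molecule of the L1 family that joins neuropilins in semaphorin 3A responses, read 19556, 20804 and 23465 units in the E10-labelled arrays, against 633, 1349 and 474 units in the E13-labelled arrays. Its E10-labelled arrays were 28.7-fold higher with no overlap (log2 difference 4.84 ± 0.40, limma adjusted p = 0.00143). L1cam, the Nrp1 co-receptor of that family, read 6839, 6797 and 7926 units in the E10-labelled arrays, against 1717, 2287 and 1978 units in the E13-labelled arrays, 3.62-fold higher in E10-labelled cells without overlap (limma adjusted p = 0.00227). Cntn2, a contactin of early axons, read 535, 204 and 344 units in the E10-labelled arrays, against 757, 1223 and 1178 units in the E13-labelled arrays, higher in all E13-labelled arrays (log2 difference -1.62 ± 0.40, limma adjusted p = 0.0305). The Cntn2 call was lost without E10-labelled replicate 3 (limma adjusted p = 0.0643) or without E13-labelled replicate 1, 2 or 3 (limma adjusted p = 0.0557, 0.102 and 0.107). Leaving out replicate 3 of both groups also lost the Cntn2 call (limma adjusted p = 0.179). Nrcam, also on the co-receptor list, lay higher in every E13-labelled array but did not pass (log2 difference -0.65 ± 0.22, limma adjusted p = 0.075). It passed with the filter at the 70th percentile (limma adjusted p = 0.0391) and with an intensity trend (0.0188).

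Of 12 tested GTPases and regulators, 2 were higher in E10-labelled and 1 in E13-labelled cells, with a median log2 difference of 0.01. Farp1, a relative of the exchange factor Farp2 that class A plexins use, read 2798, 1759.7 and 2669 units in the E10-labelled arrays, against 632, 668 and 722 units in the E13-labelled arrays, 3.51-fold higher in E10-labelled cells (limma adjusted p = 0.00403), a call lost without replicate 3 of both groups (limma adjusted p = 0.0574). Arhgef12, an exchange factor that binds class B plexins, read 4937, 4516 and 4728 units in the E10-labelled arrays, against 2434, 2732 and 2383 units in the E13-labelled arrays (log2 difference 0.91 ± 0.17, limma adjusted p = 0.0116). Rnd2, a small GTPase of migrating neurons, read 1643, 1134 and 943 units in the E10-labelled arrays, against 3196, 2653 and 3152 units in the E13-labelled arrays, and was higher in E13-labelled cells (log2 difference -1.31 ± 0.25, limma adjusted p = 0.0143). The groups did not overlap for any of these 3 genes. The Arhgef12 call was lost without E13-labelled replicate 1 or 3 (limma adjusted p = 0.0538 and 0.0623), and the Rnd2 call without E13-labelled replicate 1 or 3 (limma adjusted p = 0.0603 and 0.0633). Both calls were also lost without replicate 3 of both groups (limma adjusted p = 0.112 for Arhgef12 and 0.114 for Rnd2). Farp2 itself lay higher in every E13-labelled array but did not pass (log2 difference -1.61 ± 0.50, limma adjusted p = 0.0617). It passed with the floor at the array median (limma adjusted p = 0.0124), with an intensity trend (0.0467) and without E10-labelled replicate 3 (0.0316). Adjustment over genes in place of probe sets also let it pass, at the same log2 difference (limma adjusted p = 0.0466). Rac1, Rap1b and Rnd3, small GTPases below plexins, had log2 differences of 0.07, 0.06 and -0.04 and did not pass (limma adjusted p = 0.831, 0.851 and 0.937). Rhoa lay higher in every E13-labelled array and did not pass either (-0.84 ± 0.27, limma adjusted p = 0.0672). It passed with the floor (limma adjusted p = 0.0433), with the filter at the 70th percentile (0.035), with an intensity trend (0.0323) and as the mean over probe sets (0.0272).

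Of 11 tested kinases, Mical enzymes and actin regulators, 4 were higher in E10-labelled and 1 in E13-labelled cells, with a median log2 difference of 0.58. Mical3 and Mical1, oxidoreductases of a family that takes actin filaments apart below plexins, passed in opposite directions. The Mical1 probe set is of the _x_at type, in which some probes may also match other genes. Mical3 read 357, 485 and 444 units in the E10-labelled arrays, against 157, 164 and 195 units in the E13-labelled arrays, and Mical1 read 247, 254 and 556 units in the E10-labelled arrays, against 1246, 1076 and 1039 units in the E13-labelled arrays. Neither overlapped between the groups (log2 differences 1.31 ± 0.20 and -1.77 ± 0.35, limma adjusted p = 0.0069 and 0.0152). Cdk5r1, the activator of the kinase that phosphorylates CRMPs, read 4087, 2121 and 4243 units in the E10-labelled arrays, against 1172, 1373 and 1148 units in the E13-labelled arrays, higher in all E10-labelled arrays (log2 difference 1.44 ± 0.31, limma adjusted p = 0.0202). Limk2, a kinase that inactivates cofilin, read 707, 408 and 640.1 units in the E10-labelled arrays, against 266, 275 and 318 units in the E13-labelled arrays (log2 difference 1.00 ± 0.26, limma adjusted p = 0.0351). The Mical3 call was lost without replicate 3 of both groups (limma adjusted p = 0.0662), and the Mical1 call without E13-labelled replicate 1, 2 or 3 (limma adjusted p = 0.0622, 0.0533 and 0.0544). Cdk5r1 was not called without E13-labelled replicate 1, 2 or 3 (limma adjusted p = 0.0743, 0.0576 and 0.0789), and Limk2 was not called without E10-labelled replicate 1 or 3 (limma adjusted p = 0.0741 and 0.0791) or without E13-labelled replicate 1, 2 or 3 (limma adjusted p = 0.116, 0.111 and 0.0905). Neither Cdk5r1 nor Limk2 passed without replicate 3 of both groups (limma adjusted p = 0.149 and 0.168).

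Markers of proliferation and of other cell types differed between the groups as well. All 3 proliferation markers with a probe set (Mki67, Top2a and Mcm2) were higher in E13-labelled cells, with a summed signal of 2688 to 3306 units in E10-labelled and 25213 to 27168 units in E13-labelled arrays. Of 6 GABAergic and Purkinje markers with a probe set, Calb1, Gad1 and Gad2 were higher in E10-labelled cells, with a sum of 1840.1 to 3299 units in E10-labelled and 409 to 655 units in E13-labelled arrays. Of 5 oligodendrocyte lineage markers, Olig1 and Olig2 were higher in E10-labelled and Pdgfra in E13-labelled cells (sum 2708 to 3143 units in E10-labelled and 864 to 1109.9 units in E13-labelled arrays). Sox10 did not pass and Cspg4 was not tested. Olig1 gave most of the sum in E10-labelled arrays, at 1814 to 2351 units. Of 5 glial markers, Fabp7 and Aldh1l1 were higher in E10-labelled and Slc1a3 in E13-labelled cells (8368 to 9673 units in E10-labelled and 4254 to 6531 units in E13-labelled arrays), while Aqp4 and Gfap were below the median in all arrays. Fabp7 gave most of this sum, at 7855 to 8886 units in E10-labelled and 3508 to 5728 units in E13-labelled arrays. Of 6 microglial and macrophage markers only 2 were tested, and 1 of these, Csf1r, passed, higher in E10-labelled cells. The sum of the 6 was 480.4 to 1193 units in E10-labelled and 248 to 410.3 units in E13-labelled arrays. Of 8 mesenchymal markers only 3 were tested, and none passed (sum of the 8, 515 to 2157 units in E10-labelled and 315 to 757 units in E13-labelled arrays). Neither crest ganglion marker with a probe set was tested. The part of these cell types, and of RNA integrity, in the differences of semaphorins, plexins, neuropilins and CRMPs was not tested.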

How the data were processed

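The authors deposited linear MAS5 intensities, a single value for every probe set on an array; MAS5 is named in the submitters' processing notes, while its version and detection calls are not given. In the values, each array's mean signal without the lowest and highest 2% was about 499.8 units. The platform annotation gave 34958 of the 45101 probe sets 1 gene symbol, 932 several and 9211 none, and 64 control probe sets were not tested.

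limma 3.58.1 (lmFit and eBayes, R 4.3.3) was fitted to log2 of the deposited signals, E10-labelled minus E13-labelled, two-sided, with Benjamini-Hochberg adjustment over 23491 probe sets above the array median in at least 3 arrays and a threshold of 0.05. Each gene took the call of the single-symbol probe set that was brightest on average (log2). Folds are 2 to the power of the log2 difference. Means carry the SD over 3 arrays, and differences limma's standard error. The code was tested on simulated data. Values by array are given for members that passed, for receptors and CRMPs that did not, and for members whose probe sets disagreed in sign. They are also given for up to 4 genes of each pathway list. Those of Sema3f and Sema3a, and the log2 differences of Rac1, Rap1b, Rnd3, Farp2, Rhoa and Nrcam, were added after they were seen. Members and lists were chosen with earlier results of these data known. Ptk2 and Pak1 had no single-symbol probe set and were not analysed here. Alternatives covered the replicate block, scaling, offset, floor, filter, variance model, probe set choice, a minimum fold and arrays left out; fits without an array kept the 23491 probe sets.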

Additional observations from a re-analysis of the deposited data

How the results depend on the processing

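None of the 20 calls changed direction in the 16 alternatives. Dpysl3, Plxna1, Plxna2, Plxnd1, Sema3c, Sema4a and Sema6d passed in every alternative (Sema3c in the 15 that gave it a value), and 11 of the 20 passed whichever single array was left out. Same-numbered arrays did not deviate together (correlations of -0.03, -0.07 and -0.01), so the numbers were not taken as pairs; with the replicate block, 14 of the 20 calls were kept, those of Dpysl2, Dpysl5, Plxnc1, Sema4g, Sema5a and Sema6c were lost and Plxna4 passed (limma adjusted p = 0.0293). Counts below are of genes higher in E10-labelled and E13-labelled cells. With the replicate block, 2003 and 1587 of all tested probe sets passed (3155 and 2939 without it), with 4 semaphorins and 2 CRMPs higher in E10-labelled cells, 1 GTPase or regulator and 1 gene of the kinase list higher in E10-labelled cells, and 0 co-receptors higher in E13-labelled cells. With no filter, 10 of the 20 calls were kept, 1559 and 1160 of all probe sets passed, and the counts higher in E10-labelled cells were 3 semaphorins, 2 receptors, 1 CRMP, 1 GTPase or regulator and 1 gene of the kinase list, with 0 co-receptors, 0 GTPases and 0 kinase-list genes higher in E13-labelled cells; this alternative adjusts over more probe sets. The mean over probe sets adjusts over genes, so genes with 1 tested probe set can change call with the same log2 difference. Sema3f, Plxna4 and Farp2 did so. GTPases and regulators higher in E13-labelled cells numbered 3 with the floor, with the intensity trend and with the mean over probe sets (Rnd2, Farp2 and Rhoa). They numbered 2 with the filter at the 70th percentile (Rnd2 and Rhoa). Co-receptors higher in E13-labelled cells numbered 2 with that filter and with the trend, and 0 with the mean over probe sets, where 1 CRMP (Dpysl4) was higher in E13-labelled cells. Requiring 2-fold left 1 GTPase or regulator and 2 kinase-list genes higher in E10-labelled cells.

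With arrays left out, singly or replicate 3 of both groups together, 830 to 2891 of all probe sets were higher in E10-labelled and 651 to 2986 in E13-labelled cells; the lower end of each came from leaving out both, which kept 7 of the 20 calls with fewer samples. Over the same fits, counts higher in E10-labelled and E13-labelled cells ranged over 2 to 7 and 1 to 3 semaphorins, 2 to 5 and 1 to 2 receptors, 2 to 3 and 0 to 2 co-receptors, 0 to 2 and 0 to 2 GTPases and regulators, and 0 to 4 and 0 to 1 kinase-list genes, and 1 to 4 CRMPs were higher in E10-labelled cells. Log2 differences that reversed all came from genes that had not passed, and the cause was not tested. Over the fits with arrays left out, the log2 difference was -0.11 to 0.24 for Sema4b, -0.023 to 1.27 for Sema4c, -0.40 to 0.44 for Sema5b, -0.20 to 0.11 for Vegfa, -1.48 to 0.032 for Vegfc, -0.30 to 0.20 for Rnd3, -0.069 to 0.25 for Rac1 and -0.029 to 0.25 for Rap1b. As the mean over probe sets, Sema6a was 0.26, Rac1 -0.30 and Ssh1 -0.14. Signals near the array median, as for Sema3c, Sema3e, Sema6c and Nrp2 in E13-labelled cells, limit the size of their differences.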
